A study of Mus musculus with 4 samples.

Results

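The 8 genes described here belong to the optic vesicle and to pigment cells, and were followed by RNA sequencing in the frontonasal prominence (FNP), the facial swelling that forms the nose and snout. They are Vax1, Vax2, Six6, Mitf, Dct, Pmel, Tyr and Tyrp1, taken by symbol from the deposited gene table, and all 8 were found among its 33055 genes of the autosomes that could be matched to an annotation. The FNPs came from 4 embryos of the FVB/NJ strain at E10.5, each with 29 somites. WT embryos (Smchd1+/+, 1 female and 1 male by their labels) were compared with embryos homozygous for the MommeD43 allele of Smchd1 (MD43, 2 males by their labels), a chemically induced missense change in a chromatin protein that silences genes. WT replicate 2 and MD43 replicate 2 share a mother, while both replicate 1 embryos came from other litters, and another listing by the study has WT replicate 2 as a female, so sex and genotype cannot be told apart here. FVB/NJ mice are albino through a coding mutation in Tyr, which all 4 embryos would share. The comparison asks which transcripts of the eye and pigment programmes differ in this tissue when SMCHD1 carries the change.

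The eye begins as an outgrowth of the forebrain, the optic vesicle, which lies beside the FNP at this stage. Vax1 and Vax2 encode related homeodomain factors of the optic stalk and ventral retina, and Six6 encodes a homeodomain factor of the retina, hypothalamus and pituitary. The outer layer of the optic cup becomes the retinal pigment epithelium, and a separate pigment lineage, the melanoblasts, leaves the neural crest. Both use MITF, a basic helix-loop-helix factor that activates Dct, Tyr, Tyrp1 and Pmel. Tyr encodes tyrosinase, the first enzyme of melanin synthesis, Dct and Tyrp1 encode its relatives that act later in the same pathway, and Pmel encodes the fibril protein of the melanosome.

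The table lists 1 value per genotype in log2 RPKM, that is, reads scaled for transcript length and library size on a log2 scale, and each value stands for 2 libraries. No spread between replicates and no test of the genotypes could therefore be computed from the listed values. The product of the reads of both libraries was recovered from each value, as set out in the processing section, and "reads" below is the square root of that product. The implied depth was 22328791 reads per library in MD43 and 16055882 in WT. The ± given with a difference is a standard error from counting reads only, and the 95% interval rests on it, so variation between embryos is not included. In dissected tissue, fewer cells of a type and less RNA per cell cannot be told apart. Smchd1 itself, with 3.30 log2 RPKM in MD43 and 3.31 in WT, gives no check of the labels because a missense change need not alter its transcript.

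All 8 genes were listed lower in MD43 than in WT, with a median difference of -0.98 log2. A gene without reads in any library was itself listed at -0.48 log2 (MD43 minus WT), because the implied depths differ. Tyr and Tyrp1, on under 10 reads, rest in part on the 0.9 reads given to an empty library. No share over all genes was taken without a minimum of reads. The optic genes were listed 1.01-fold to 1.60-fold lower, and the 95% counting interval of Vax2 (-1.47 to 0.11 log2) reached past 2-fold. Of the 5 pigment genes, 4 were listed at least 2-fold lower, 2 of them on under 10 reads. The interval of Tyrp1 (-2.92 to 0.38) included 0, and the differences of Pmel and Tyrp1 each rest on 1 WT library. The table holds 15355 genes that reached 10 reads in WT or MD43, and 48.8% of those were lower. Of the 8 genes, 6 reached 10 reads, and 2 of these, Mitf and Pmel, were at least 2-fold lower. The share of all genes past the same fold was 2.46%. It was 7.71% among the 4019 genes with 10 to 100 reads, the range that holds 4 of the 6 genes. None of the 6 was at least 2-fold higher, against 1.63% of all genes and 5.72% of those with 10 to 100 reads. Of the optic genes, Vax1 and Six6 passed 100 reads and neither was 2-fold lower, against 0.6% of all genes at that depth. At 1.5-fold, 4 of the 6 were lower, against 6.42% of all genes. All 4 lie in the range of 10 to 100 reads, for which the share at 1.5-fold was not computed. None of these 6 had a 95% counting interval that lay wholly beyond 2-fold.

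**Figure D1:**
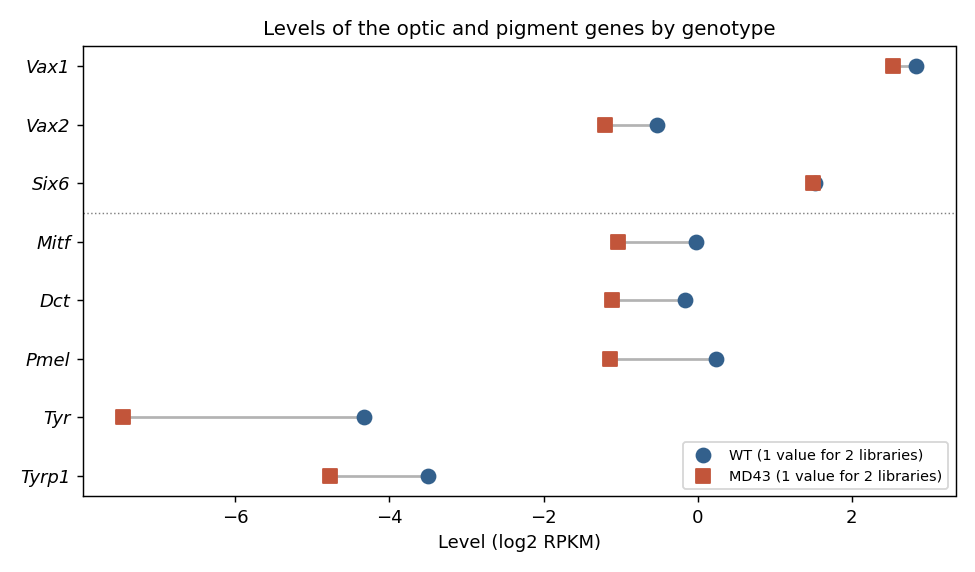
Level of each gene in log2 RPKM (horizontal axis) in WT (blue circles) and MD43 (red squares), 1 value per genotype for 2 libraries each; the dotted line parts the optic genes from the pigment genes. The MD43 value lies to the left of the WT value in each row, with a wide gap for Tyr, where both MD43 libraries had no reads, and almost none for Six6 (a difference of -0.02).

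Vax1 (ENSMUSG00000006270, GRCm38 chromosome 19, 59166187 to 59170056, minus strand) had the highest level of the 8 genes in both genotypes. Its level was 2.83 log2 RPKM in WT and 2.53 in MD43, from 128 and 144 reads. The difference was -0.30 ± 0.12 log2, with a 95% counting interval from -0.54 to -0.05. The closest whole-number reads behind these values are 117 and 139 in WT and 138 and 151 in MD43. Scaled to depth, these libraries overlapped between the genotypes.

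Vax2 (ENSMUSG00000034777, chromosome 6, 83711264 to 83738313, plus strand), which marks the ventral retina, was listed at -0.53 log2 RPKM in WT and -1.21 in MD43. These values rest on 13.8 and 12.0 reads, and the difference of -0.68 ± 0.40 log2 had an interval from -1.47 to 0.11 that included 0. In WT the closest pair was 10 and 19 reads, and in MD43 it was 12 and 12. A difference for Vax2 was thus not detectable at this depth. The antisense gene Vax2os overlaps Vax2 but shares 0 of its exon bases.

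Six6 (ENSMUSG00000021099, chromosome 12, 72939892 to 72944899, plus strand) had nearly the same level in the genotypes. From 185 reads in WT it had 1.52 log2 RPKM, and from 254 reads in MD43 it had a level that differed by -0.02 ± 0.10 log2. The interval ran from -0.21 to 0.17, which leaves room for a change of that size in either direction but not for a 2-fold one by counting error. The closest pairs were 180 and 190 reads in WT and 224 and 287 in MD43, which overlap once depth is taken into account. Exons of the gene 4930447C04Rik on the opposite strand cover 4.79% of the Six6 exon bases.

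The listed differences of the pigment genes were larger than those of the optic genes, with intervals that overlap that of Vax2. Because Tyr, Tyrp1 and Dct are known targets of MITF and were all listed lower, their promoters are shown first. RefSeq promoter windows (GRCm38.p6) were matched for 6 of the 8 genes. The 250 bases before the start are printed 5′ to 3′ on the strand of the gene, at chr7:87493513-87493762 (minus strand) for Tyr, chr4:80833963-80834212 (plus strand) for Tyrp1 and chr14:118052247-118052496 (minus strand) for Dct. Capitals mark the letters CATGTG, or CACATG on the other strand, which MITF is known to bind.
Tyr: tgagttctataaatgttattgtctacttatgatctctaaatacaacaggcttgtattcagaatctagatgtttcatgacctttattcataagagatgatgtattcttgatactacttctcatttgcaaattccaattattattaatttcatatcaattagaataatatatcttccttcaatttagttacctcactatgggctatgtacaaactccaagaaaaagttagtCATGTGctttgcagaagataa
Tyrp1: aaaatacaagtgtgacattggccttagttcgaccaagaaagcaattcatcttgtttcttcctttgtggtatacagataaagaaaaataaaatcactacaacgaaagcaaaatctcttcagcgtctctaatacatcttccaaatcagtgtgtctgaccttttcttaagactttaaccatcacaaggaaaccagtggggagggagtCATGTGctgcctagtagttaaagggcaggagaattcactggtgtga
Dct: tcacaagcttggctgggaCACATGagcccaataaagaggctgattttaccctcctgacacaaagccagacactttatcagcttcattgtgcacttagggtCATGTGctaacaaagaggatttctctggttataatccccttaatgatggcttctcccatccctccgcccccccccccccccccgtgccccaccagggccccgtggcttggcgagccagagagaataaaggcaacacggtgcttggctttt

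The first base of the capitals lay 21 bases before the start in Tyr and 46 in Tyrp1. In Dct they began 232 and 150 bases before the start. The windows searched hold 300 bases, the 250 before the start and those that follow it, and the shares count 1 window per gene. The letters CATGTG, searched on both strands, were in the windows of 14.1% of 27025 genes, so their presence alone is common. The palindrome CACGTG, another form of the MITF site that does not overlap with them, was in 7.24% of windows and in none of the windows matched here. Around the capitals, the longest stretch that the 3 promoters share is GTCATGTGCT, which was in the windows of 38 genes (0.141%). Tyr and Tyrp1 share 1 letter more, AGTCATGTGCT, found in 7 genes (0.0259%). Both stretches were picked from these same promoters, which are among the genes counted. Their presence here was therefore fixed beforehand, and their rarity is not evidence of a shared site. Neither 6-letter motif was found in the 3 Mitf windows or in those of Six6 and Vax1. The annotated start of Tyrp1 in GENCODE lies upstream of the RefSeq start used here. A match of letters is a description and not a measured binding site.

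Mitf (ENSMUSG00000035158, chromosome 6, 97807052 to 98021349, plus strand), the regulator of the group, was 2.01-fold lower in MD43. Its level was -0.03 log2 RPKM in WT and -1.03 in MD43, from 97.7 and 67.7 reads. The difference was -1.01 ± 0.16 log2, with an interval from -1.32 to -0.69. The reads were uneven in MD43. Their product of 4578 allows no pair of whole reads closer than 42 and 109, so they stood at least 2.60-fold apart. Of genes with a product within 2-fold of it, 1.27% had a closest pair as far apart or further. Their real reads may lie further apart than the closest pair. The WT libraries could be as close as 90 and 106 reads. On the closest pair, with the MD43 library of fewer reads left out, the difference was -0.32 log2. It was -1.69 with the other left out. The first value ran from -0.62 to -0.02 with the library kept taken as the deeper or the shallower, at the median depth ratio given below. The pair of 21 and 218 reads is also allowed and was not tried, so the sign is not secured by this range.

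Dct (ENSMUSG00000022129, chromosome 14, 118012790 to 118052244, minus strand) was 1.94-fold lower in MD43, just short of the 2-fold line that Mitf just passed. It had -0.16 log2 RPKM in WT and -1.11 in MD43, from 84.8 and 60.8 reads, a difference of -0.96 ± 0.17 log2 with an interval from -1.29 to -0.62. Here it was the WT libraries that differed. Their reads were 51 and 141 or further apart, at least 2.76-fold. The closest pair was as far apart for 1.79% of genes with a like product. The MD43 libraries could be as close as 56 and 66 reads. Without the WT library of more reads the difference was -0.22 log2 (-0.51 to 0.07 with the remaining library as the deeper or the shallower), and without the other it was -1.69.

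Pmel (ENSMUSG00000025359, chromosome 10, 128704195 to 128720238, plus strand) had the largest difference among the genes with at least 10 reads. Its level was 0.23 log2 RPKM in WT and -1.13 in MD43, from 43.2 and 23.3 reads, a difference of -1.36 ± 0.26 log2 or 2.58-fold, with an interval from -1.88 to -0.85. The WT product of 1866 can be split in 4 ways, of which 6 and 311 reads is the closest and 3 and 622 the next. One WT library therefore held at least 311 reads of Pmel and the other at most 6, no less than 51.8-fold apart. The closest pair was as far apart for 0.255% of genes with a like product. The MD43 libraries could be as close as 17 and 32 reads, which lie between those of WT. The direction of the difference was set by 1 WT library. Without the library of more reads, MD43 was higher by 1.48 log2 (1.19 to 1.77 with the remaining library as the deeper or the shallower). Without the other, MD43 was lower, at -4.21. Pmel shares 34 exon bases (1.48%) with Cdk2 and 105 (4.58%) with Dgka, both on the opposite strand. Reads of Cdk2 numbered 1931 in WT and 2548 in MD43, and whether the counting used strand is not given in the sources used here.

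Tyr (ENSMUSG00000004651, chromosome 7, 87424771 to 87493512, minus strand) was the lowest of the 8 genes. Neither MD43 library held a read, and the WT product of 32 allows 4 and 8 reads, 2 and 16 or 1 and 32, so both WT libraries held some. Against a floor of 3 reads per genotype it was at least 2.62-fold lower in MD43. On summed reads, 0 of MD43 against at least 12 of WT gives an exact (Clopper-Pearson) 95% upper limit of 0.259 for the ratio of MD43 to WT after depth, for counting error alone. The libraries did not overlap, on very few reads, and how many of all genes do the same was not computed.

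Tyrp1 (ENSMUSG00000005994, chromosome 4, 80834123 to 80851719, plus strand) was uneven in both genotypes. Its values fix the reads of each library, 0 and 18 in WT and 0 and 6 in MD43. Which embryo held them cannot be told. The summed reads gave a ratio of MD43 to WT of 0.240 after depth, with an exact 95% interval from 0.0779 to 0.630. The embryos of the genotypes overlapped, since each had a library without Tyrp1 reads. With the WT library of 18 reads left out, WT held no read of Tyrp1, below the 6 of MD43.

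**Figure D2:**
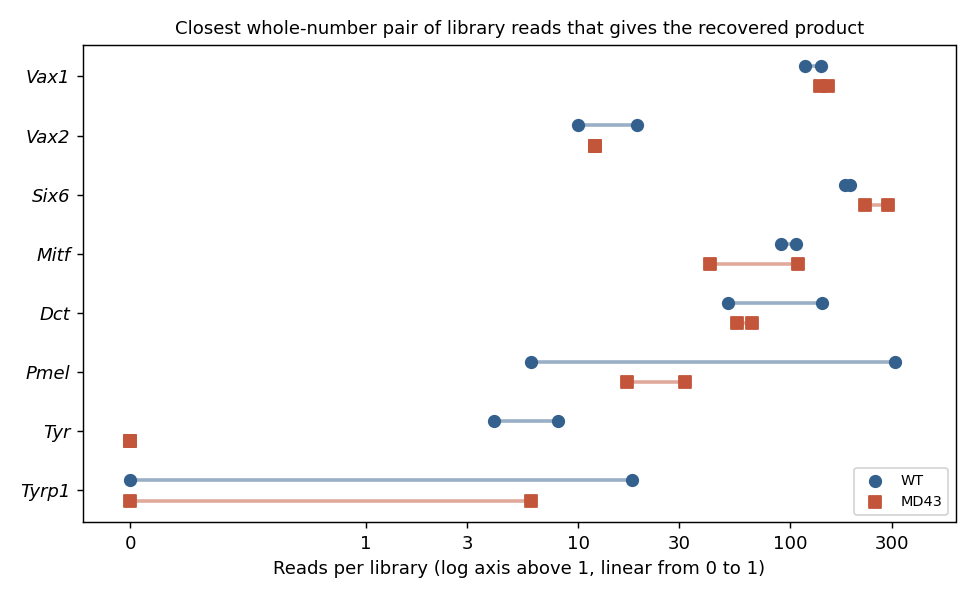
Closest pair of whole reads per library that multiplies to the recovered product of each genotype (horizontal axis, logarithmic above 1 read), WT as blue circles and MD43 as red squares, not scaled to depth; any other pair would lie further apart. The WT libraries of Pmel (6 and 311) lie on either side of the MD43 libraries (17 and 32), while those of Vax1 and Six6 can sit close together.

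In 5 of the 5 pigment genes the closest pair was at least 2-fold apart in a genotype, and in 0 of the 3 optic genes. Tyr met this line exactly and Vax2 just missed it, so the count is not read as a trait of pigment genes. The closest pair gives only the smallest possible gap, so the optic libraries need not have been alike. Six6 in WT allowed 36 pairs, and Vax1 in WT could also have had 39 and 417 reads. The share of all genes past the same line was not computed. At low counts such gaps were common even between closest pairs. Those of 31.5% of genes with a product like that of Tyr in WT were as far apart as its 4 and 8 reads. Vax2 in WT, at 1.90-fold, was matched by 18.9%. Libraries also differ in depth. Among 706 genes with a single pair within 4-fold, the larger MD43 count was a median of 1.52 times the smaller one, and among 777 such genes in WT it was 1.49 times. Scaled by these ratios, and trying either library of a genotype as the deeper one, the closest pairs of Vax1, Six6, Pmel and Tyrp1 overlapped between genotypes in 4 of 4 arrangements. Those of Vax2, Mitf and Dct overlapped in 2 of 4, and those of Tyr in 0 of 4. The share of all genes without overlap was not computed, so these counts cannot be set against it. For Mitf, the scaling placed WT at 4.59 to 8.06 reads per 1000000 and MD43 at 1.53 to 6.01. For Dct it placed WT at 2.60 to 10.7 reads per 1000000 and MD43 at 2.04 to 3.64. The embryo behind a count is unknown, so it cannot be said whether the high Pmel, Dct and Tyrp1 counts of WT came from the same FNP.

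**Figure D3:**
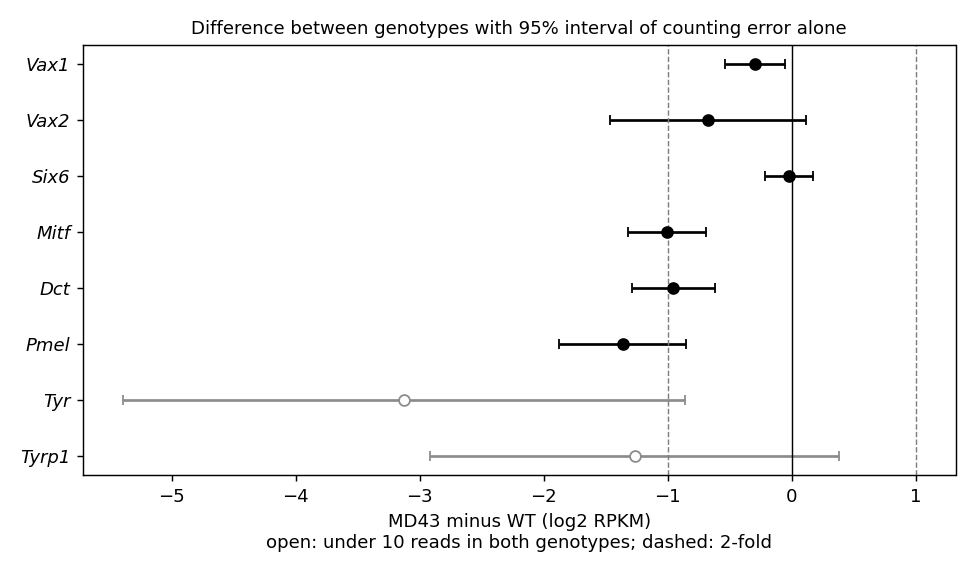
Difference MD43 minus WT in log2 RPKM for each gene (points), with bars for the 95% interval of counting error alone; dashed lines mark 2-fold, and open grey points are genes under 10 reads in both genotypes, where the point of Tyr depends on the 0.9 reads given to an empty library. The bars of Mitf, Dct and Pmel lie below 0 and cross the 2-fold line, and those of Six6, Vax2 and Tyrp1 include 0.

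Levels can be ordered because RPKM is scaled for length. In WT the order was Vax1 (2.83 log2 RPKM), Six6 (1.52), Pmel (0.23), Mitf (-0.03), Dct (-0.16), Vax2 (-0.53), Tyrp1 (-3.50) and Tyr (-4.33). In MD43 Vax1 and Six6 again came first, and Mitf (-1.03), Dct (-1.11), Pmel (-1.13) and Vax2 (-1.21) followed, and no neighbours among these 4 differed beyond counting error. Nor did Pmel and Mitf, Mitf and Dct, Dct and Vax2 or Tyrp1 and Tyr in WT. Even Vax1 lay near the middle of the transcriptome, above 58.3% of genes with at least 10 reads in WT, and Mitf lay above 20.6%. The genes whose 2 genotype values lay nearest to those of Pmel were Dner (a distance of 0.0056 log2), 1300014J16Rik (0.039) and Gm37179 (0.077). With 2 values, this says only that their levels were alike.

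Other genes of the same programmes were then described from lists. Of 57 genes in 6 lists, 42 had at least 10 reads in a genotype, of which 12 were lower in MD43 by 2-fold or more (2.46% of all genes were) and 1 was higher by as much (1.63% of all genes). Of the 42, 5 were chosen by the study on these libraries. Among the 14 such genes of the eye field and neural retina, 11 were lower, 6 of them at least 2-fold, with a median of -0.48 log2 against 0.006 for all genes. Rax, which specifies the eye field, was 4.51-fold lower (24.5 reads in MD43 and 79.4 in WT). Aldh1a1, an enzyme of retinoic acid synthesis in the dorsal retina, was 7.14-fold lower and Foxd1, a factor of the temporal retina, 2.72-fold lower. Of the genes on this list, 4 were chosen by the study as changed in these same libraries, these 3 among them, so they are not independent evidence of the list's direction. Mab21l2, needed for growth of the optic vesicle, was 2.66-fold lower. Hmx1, a factor of eye and ear development, was 2.46-fold lower, with reads of 14 and 41 in WT and 8 and 23 in MD43 at their closest. In contrast, Aldh1a3 was higher by 0.96 log2 and Lhx2 by 0.49. Otx2 differed by -0.62 log2, Pax6 by -0.35, Six3 by -0.28 and Sox2 by -0.13. Exons of Raxos1, on the opposite strand, cover 27.4% of the Rax exon bases. Reads of Raxos1 numbered 41.4 in WT and 12.5 in MD43, and how many reads were counted for both genes was not tested.

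Among 8 genes of the optic stalk and ventral midline, 5 were lower and 3 higher, with a median of -0.23 log2. Pax2, the classical optic stalk factor, was 2.30-fold lower, with reads of 51 and 75 in WT and 31 and 45 in MD43 at their closest. Shh (-0.34), Fgf8 (-0.34) and Nkx2-1 (-0.45) differed less. Hesx1, a factor of the forebrain and pituitary, went the other way, with 0 and 6 reads in WT and with 5 and 31 or 1 and 155 in MD43.

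Of 7 markers of the retinal pigment epithelium, 4 reached 10 reads, with a median of -0.54 log2. Ttr, the carrier of thyroid hormone and retinol-binding protein, was 2.34-fold lower on 12.7 reads in WT and 7.55 in MD43. Rlbp1, which binds retinaldehyde, differed by -0.56 log2, and as for Pmel its WT libraries were far apart, with no pair closer than 12 and 59 reads. Rpe65 and Rgr, markers of the mature layer, had no reads in any library.

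Of the genes for the melanosome and pigment transport, 7 of 13 reached 10 reads and their median was -0.02 log2. Trpm1, a cation channel gene and a known MITF target, stood apart. From 231 reads in WT and 43.6 in MD43 it was 7.38-fold lower, or -2.88 ± 0.17 log2. Its closest pairs were 231 and 232 reads in WT and 34 and 56 in MD43, which scale to 11.8 to 17.7 and to 1.24 to 3.09 reads per 1000000 and do not overlap. These are the closest of 32 possible pairs in WT and 10 in MD43, and pairs further apart could overlap. The share of all genes without overlap was not computed. The other genes of this list that passed 10 reads were Mreg (0.67 log2), Rab32 (-0.46), Slc24a5 (-0.22), Myo5a (0.06), Rab27a (-0.02) and Rab38 (0.00065). Most of these are used by many cell types. Among the genes under 10 reads, Oca2, a melanosome transporter, had 0 and 4 reads in MD43 and 4 and 19, or further apart, in WT. Mc1r, the melanocortin receptor, had 0 and 1 in MD43 and at least 12 in WT together. Mlana had 1 and 5 reads in MD43 and 0 and 2 in WT.

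For the melanoblast and neural crest list, 7 genes had a median of 0.15 log2, with 2 lower and 5 higher. Ednrb, the endothelin receptor of melanoblasts, was 2.41-fold lower and was likewise chosen by the study on these libraries. Sox10, the crest factor that activates Mitf, had 9 and 13 reads in WT and 3 and 13 in MD43 at their closest, a difference of -1.27 ± 0.51 log2. Erbb3, a neuregulin receptor of crest and glia, was higher by 0.92 log2. Kit (0.22), the receptor of melanoblasts, Pax3 (0.20) and Kitl (0.11) were above their WT level. Of the relatives of Mitf that bind the same sites, Tfec, which is made in the retinal pigment epithelium, was 2.02-fold lower, whereas Tfeb was higher by 0.85 log2.

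**Figure D4:**
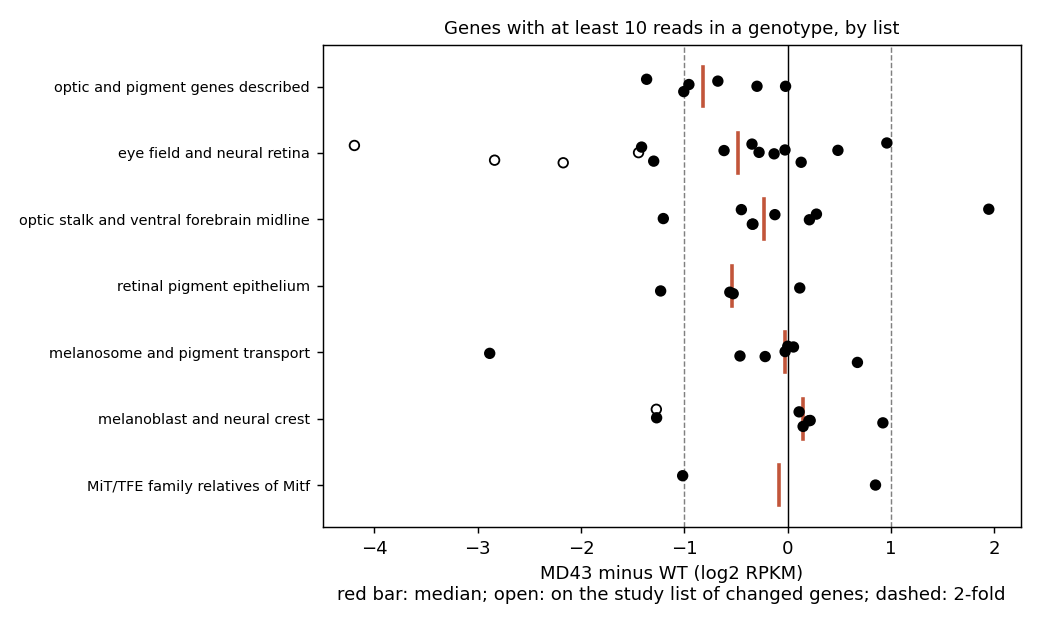
Difference MD43 minus WT in log2 RPKM (horizontal axis) for genes that reached 10 reads in WT or MD43, 1 point per gene and 1 row per list, with the median as a red bar; open points are genes on the study's own list of changed genes, and dashed lines mark 2-fold. The optic and pigment genes (median -0.82) lie at or below 0, and Trpm1 stands alone at -2.88 among the melanosome genes.

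Markers of the tissues that an FNP can include also differed. For comparison, 48.8% of all genes with at least 10 reads were lower in MD43. By 2-fold or more, 2.46% of them were lower and 1.63% higher. Among genes with 10 to 100 reads, 7.71% were lower by as much. The facial mesenchyme list, which defines the labelled tissue, was well expressed, with 9 of 9 genes used, a median of -0.17 log2 and a summed level of 162 RPKM in WT and 159 in MD43. The 8 of 9 diencephalon and hypothalamus markers with enough reads were all lower in MD43, 7 of them at least 2-fold, with a median of -1.52 log2 and sums of 32.9 and 14.7 RPKM for WT and MD43. Barhl2, Foxb1 and Nkx2-2 of this list were chosen by the study on these libraries, while Otp (2.97-fold), Sim1 (2.78-fold), Dbx1 (2.64-fold) and Lhx5 (2.18-fold) were not. Of 7 telencephalon markers, 2 were at least 2-fold lower, Lhx6 (2.93-fold) and Neurog2 (2.08-fold), neither of them on the study's list. Their median was -0.17 log2 and their sums were 67.7 RPKM in WT and 70.0 in MD43. The 7 surface ectoderm markers were all higher in MD43 (median 0.61 log2, sums of 117 and 183 RPKM), as were the 5 red blood cell markers (median 0.84 log2, sums of 3057 and 5814 RPKM). No marker of these lists was at 0 in both libraries of a genotype. The part of tissue content in the lower pigment and retinal genes was not tested.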

How the data were processed

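The FNPs of 4 embryos, 2 WT and 2 MD43, were sequenced by the study as stranded mRNA libraries from 100 ng of total RNA, and groups were taken from the sample titles. The authors trimmed the reads (Trim Galore 0.4.4), mapped them (HISAT2 2.0.5, GRCm38.p6, versions per the submitters' processing notes) and quantified them in SeqMonk. The deposited values are log2 RPKM, which the authors scaled to transcript length and to library size. Each genotype has 1 column. The table covers 33708 rows on 19 autosomes. Its columns of fold change, mean and FDR were not used.

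Rows were matched to GENCODE M21 by symbol and position (33101 rows, 33055 genes with repeated symbols counted once). Genes without reads share 1 constant after correction for exon length, with such a library counted as 0.9 reads. Taking values relative to it gave the product of the reads of both libraries. Of products from 1000 to 100000, 99.7% were whole within 0.1 in each genotype, against 19.8% and 20.2% after random scaling, and the 8 genes deviated by at most 0.0047. A product does not tell which embryo held which count. The whole-number pairs were therefore listed, and the closest is given. Depth of single libraries is known only as a ratio, from the pairs. Recovery was also run on simulated data built with the same 0.9 reads and the same averaging of libraries. That run checks the calculation, and cannot show that the deposited values were made this way. Genes were counted past 2-fold, with at least 10 reads in a genotype. No test across genes was run, since the columns hold no replicates. Intervals are 95% and cover counting error only.

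The genes, lists and thresholds were chosen with earlier results of these data known. Named were the 8 genes, list genes past 2-fold or with the largest differences, the 3 genes nearest to the one of these with the largest difference, and overlapping genes. List genes under 10 reads, smaller changes and those of markers were named after their values were seen. Some list genes are counted but not reported by name here. Sequences are from RefSeq. The scripts used Python 3.11.15, numpy 2.4.6, pandas 2.3.3 and scipy 1.17.1.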

Additional observations from a re-analysis of the deposited data

How the results depend on the processing

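The count of genes at least 2-fold lower, 2 of the 6 with enough reads, rested on values near the line. It was 4 at a 1.5-fold threshold or with no minimum of reads, 1 with at least 50 reads, with a pseudocount of 0.1 RPKM or with the GC content and length correction, and 0 with a pseudocount of 1 RPKM, which exceeds the level of most of these genes. The count of genes 2-fold higher was 0 in each of these. The median of the 6 genes was -0.32 log2 with the pseudocount of 1 RPKM. The eye field and retina median was -0.31 with at least 50 reads, -0.29 with that pseudocount and -0.20 without genes of the study's list. The median of the pigment epithelium list was 0.12 with at least 50 reads, where Otx1 alone was left. Of 86 alternatives for medians, 80 stayed within the counting error, as did 59 of 72 for single genes. Some could not move a result, such as the floor of 3 reads for genes above it. Tyr and Tyrp1, with counting errors of 1.16 and 0.84 log2, could shift far and still stay within them. Leaving out single libraries, on the closest pairs and chosen after the data were seen, moved the Pmel difference from -4.21 to 1.48 log2. Tyrp1, on under 10 reads, and Six6, within counting error, also changed sign. With the library kept taken as the deeper or the shallower at the median depth ratio, the ranges of Dct, Vax1 and Vax2 also reached above 0. Pairs further apart were not tried.

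No paired analysis was possible because the columns hold 1 value per genotype and the counts of a pair carry no replicate number. Fits without each replicate, with sex or with litter were not run for the same reason. Depth limits Tyr, Tyrp1 and Vax2, which rest on under 20 reads per genotype.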

Other observations

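Markers of the lens, which forms from surface ectoderm beside the optic cup, were low. Foxe3, a lens factor, had no read in either MD43 library and at least 11 in WT together. Cryaa, a lens crystallin, had 0 and 16 reads in WT and Pitx3 had 0 and 12, and both were at 0 in MD43. In contrast Cryab, a crystallin that many tissues make, was higher by 0.46 log2, reads of the crystallin gene Cryba1 numbered 1.34 in WT against 3.46 in MD43, and Prox1 (-0.72) and Maf (-0.44) were lower. For Cryaa and Pitx3, as for Tyrp1, 1 WT library held the reads and the other had none.

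Markers of the pituitary primordium, which also makes Six6, were listed higher. The 4 of 6 with enough reads were all higher in MD43, with a median of 0.44 log2. Lhx3 and Lhx4 passed 10 reads in MD43 only (2.32 and 7.07 in WT), so the filter favoured their direction. Of all genes with at least 10 reads, 48.8% were lower. Lhx3, a factor of the pouch, had 0 and 6 reads in WT and could be as close as 14 and 15 in MD43. Pomc was higher by 0.37 log2, but its interval (-0.05 to 0.79) and that of Lhx4 (-0.42 to 1.43) included 0. Pou1f1 had no reads in any library. The share of Six6 reads from each of these tissues was not tested.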
